A study of Bos taurus with 3 samples.

Results

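The GSTA1-high IGFBP5-low cells of the adult bovine rumen were the cells with at least 8 unique molecular identifiers (UMIs, the counted RNA molecules) of GSTA1 (ENSBTAG00000021516), at most 1 UMI of IGFBP5 (ENSBTAG00000054218) and a mitochondrial share of UMIs of at least 1%. The cells were thus chosen by their GSTA1 and IGFBP5 counts and their mitochondrial share. There were 681 of them among 20728 cells, and they are called members here. Rumen epithelium of 3 adult, lactating Holstein dairy cows was profiled cell by cell in droplets (10x Chromium, counting the 3′ ends of transcripts). Each cow gave 1 library and none was treated. The tissue came from the ventral sac, was stripped of its muscle layers, and was dissociated with EDTA, trypsin and a mix of collagenases, dispase, hyaluronidase and DNase. Cells of other types had been removed by marker genes before deposit. Since all 3 cows shared 1 condition, the comparisons are between groups of cells of the same cow.

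The rumen wall is lined by a stratified squamous epithelium whose basal cells sit on the basement membrane and whose spinous, granular and cornified layers face the fermenting contents. It takes up the volatile fatty acids (VFAs) that microbes produce, turns a part of the butyrate into ketone bodies, and at the same time keeps microbes and toxins out. GSTA1 encodes an alpha class glutathione S-transferase, an enzyme that couples glutathione to reactive and foreign compounds. IGFBP5 is a secreted protein that binds insulin-like growth factors.

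The members were compared with 3 other groups of cells of the same cow. GSTA1-zero cells had 0 UMIs of GSTA1 and numbered 15072. GSTA1-low cells had 1 to 7 UMIs of GSTA1 and otherwise met the rule, and they numbered 1722. IGFBP5-carrying cells met the rule except that they had at least 2 UMIs of IGFBP5, and they numbered 1168. A level is given as UMIs of a gene per 10000 UMIs of all cells of that group and cow.

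Members made up 2.05% of the cells of cow 1 (69 cells), 1.55% of cow 2 (115 cells) and 4.99% of cow 3 (497 cells), a mean of 2.86% ± 1.86 (SD, n = 3). Cow 3 thus held most of the members, and the mean share was 1.80% without it. The rule fixed the GSTA1 and IGFBP5 values, which are a description only. GSTA1 reached 11.4, 10.4 and 20.8 UMIs per 10000 in the members of cows 1, 2 and 3, with a median of 16, 18 and 20 UMIs per cell and a highest count of 191. IGFBP5 stood at 0.283, 0.247 and 0.321 per 10000 in the members and at 1.37, 1.15 and 1.32 in GSTA1-zero cells.

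The rule used absolute counts, and the members were deeper than the other cells. Their median was 17885, 18959 and 13540 UMIs per cell in the 3 cows, against 8569, 11022.5 and 8887 in GSTA1-zero cells and 21241, 20053.5 and 14722 in IGFBP5-carrying cells. Over all cells the median was between 9747 and 12051. The median mitochondrial share was 21.4%, 13.4% and 13.2% in members and 14.7%, 10.4% and 11.9% in GSTA1-zero cells. Results were therefore also computed in cells of 8000 to 16000 UMIs only, called matched depth below. This left 27, 28 and 324 members and 32, 35 and 429 IGFBP5-carrying cells, so that in a call lost there the depth and the smaller number of cells cannot be told apart. Within that window the depth was closer but not equal. Mean UMIs per cell were still higher in members than in GSTA1-zero cells of each cow, and higher again in IGFBP5-carrying cells. Across the libraries 35 barcodes occurred in 2 cows, and 1 of these barcodes belonged to a member.

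The cells at the limits of the rule were pooled over cows. GJA1 and KRT6A showed no step up between 7 and 8 UMIs of GSTA1, and KRT6A went down gradually across the IGFBP5 limit. The 52 cells with 8 UMIs of GSTA1 carried 0.481 UMIs of GJA1 and 6.39 of KRT6A per 10000, and the 69 cells with 7 UMIs carried 0.963 and 10.5. By IGFBP5, the 361 members with 0 UMIs had 18.1 UMIs of KRT6A per 10000, the 320 members with 1 UMI had 13.8, and the 270 cells with 2 UMIs had 9.67. In wider bins GJA1 rose within each cow, from 1.49, 1.54 and 0.103 at 4 to 7 UMIs of GSTA1 to 2.37, 2.25 and 0.137 at 8 to 11. KRT6A rose between these bins in cow 3 only (6.89 to 7.75). A UMI count is a sample of a cell's RNA, so cells mix at a limit. These values thus cannot tell a range from separate classes of cells. At the mitochondrial limit there was a gap, with 1 member between 1% and 5%. The 36 cells under 1% that met the other limits had 116.5 UMIs of KRT6A and 14.4 of KRT15 per 10000. Their median was 4505 UMIs per cell, and they were not compared with the members by a test.

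The label calls these cells spinous, and the markers bore it out only in part. Of the 8 spinous markers listed, 4 had enough counts to be tested, and KRT6A, S100A8, S100A9 and KRT10 were all higher in members than in GSTA1-zero cells. KRT10, the keratin that is the textbook marker of the spinous layer, was nevertheless low everywhere. It stood at 0.299, 0.373 and 0.246 UMIs per 10000 in members against 0.217, 0.227 and 0.204 in GSTA1-zero cells (log2 fold change 0.54 ± 0.11 SE, edgeR adjusted p = 0.000613), and it was not called in cells of 8000 to 16000 UMIs (0.29, adjusted p = 0.234). Of the 8 basal markers, 5 were lower, 1 was higher and 2 were not called, whereas their summed level was 100.1, 125 and 192 per 10000 in members and 114, 130 and 173 in GSTA1-zero cells. At matched depth, 3 of the basal markers were lower. Among the 7 terminal markers listed, IVL and CNFN were at or near 0 in every group, while TGM1 (log2 fold change 3.32) and TGM3 (5.48), the only ones with enough counts to be tested, were higher in members at low levels. The cells are therefore called by their rule below.

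Across the genome, members differed widely from GSTA1-zero cells of the same cow. edgeR's quasi-likelihood test on the summed counts, with the cow as a block, was run on 9984 genes, and a gene was called at an adjusted p under 0.05 with an absolute log2 fold change above 0.36. It called 1982 genes higher in members (19.9%) and 1859 lower (18.6%), together 38.5%. Of these, 1893 and 1782 differed the same way in each of the 3 cows. The median log2 fold change over all genes was -0.01, and the counts of gene lists against GSTA1-zero cells are to be read against these shares. At matched depth the shares were 13.8% higher and 12.3% lower of 8862 genes.

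The 3 genes that marked the cells beside GSTA1 were all higher in members. They had been proposed with results of these data known, so their direction was not in question and their values are what is given. GJA1 (ENSBTAG00000001835) encodes connexin 43, the gap junction protein that lets neighbouring cells exchange small molecules. It stood at 4.25, 3.53 and 0.931 UMIs per 10000 in members and at 0.197, 0.0252 and 0.0125 in GSTA1-zero cells. The groups did not overlap, although the members of cow 3 held less of it than those of the other cows. Its log2 fold change came to 5.81 ± 0.36 (SE; adjusted p = 1.96e-10 by edgeR) and was 6.79 without cow 1 and 5.19 without cow 2.

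KRT6A (ENSBTAG00000039425), a keratin of suprabasal and activated keratinocytes, stood at 11.7, 13.6 and 17.6 UMIs per 10000 in members against 1.01, 1.38 and 2.03 in GSTA1-zero cells (log2 fold change 3.40 ± 0.10, adjusted p = 1.84e-14). ZNF750 (ENSBTAG00000015406) encodes a transcription factor that promotes terminal differentiation of keratinocytes. It was scarce but unevenly spread, at 0.504, 0.595 and 0.224 in members against 0.0203, 0.0243 and 0.00951 (4.70 ± 0.16, adjusted p = 6.89e-14). For KRT6A and ZNF750, too, every cow's members lay above all GSTA1-zero values. The study names 1 of its GJA1-expressing spinous clusters by TM4SF1 and counts ZNF750 and ATP6V1B1 among the genes uniquely high in it. TM4SF1 stood at 0.866, 4.64 and 0.502 in members against 0.534, 2.03 and 0.200 (1.18 ± 0.10), with overlap between cows. Against IGFBP5-carrying cells (0.606, 3.37 and 0.283) it was higher by 0.54 ± 0.10. ATP6V1B1 was higher than in GSTA1-zero cells by 3.83 ± 0.21.

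**Figure D1:**
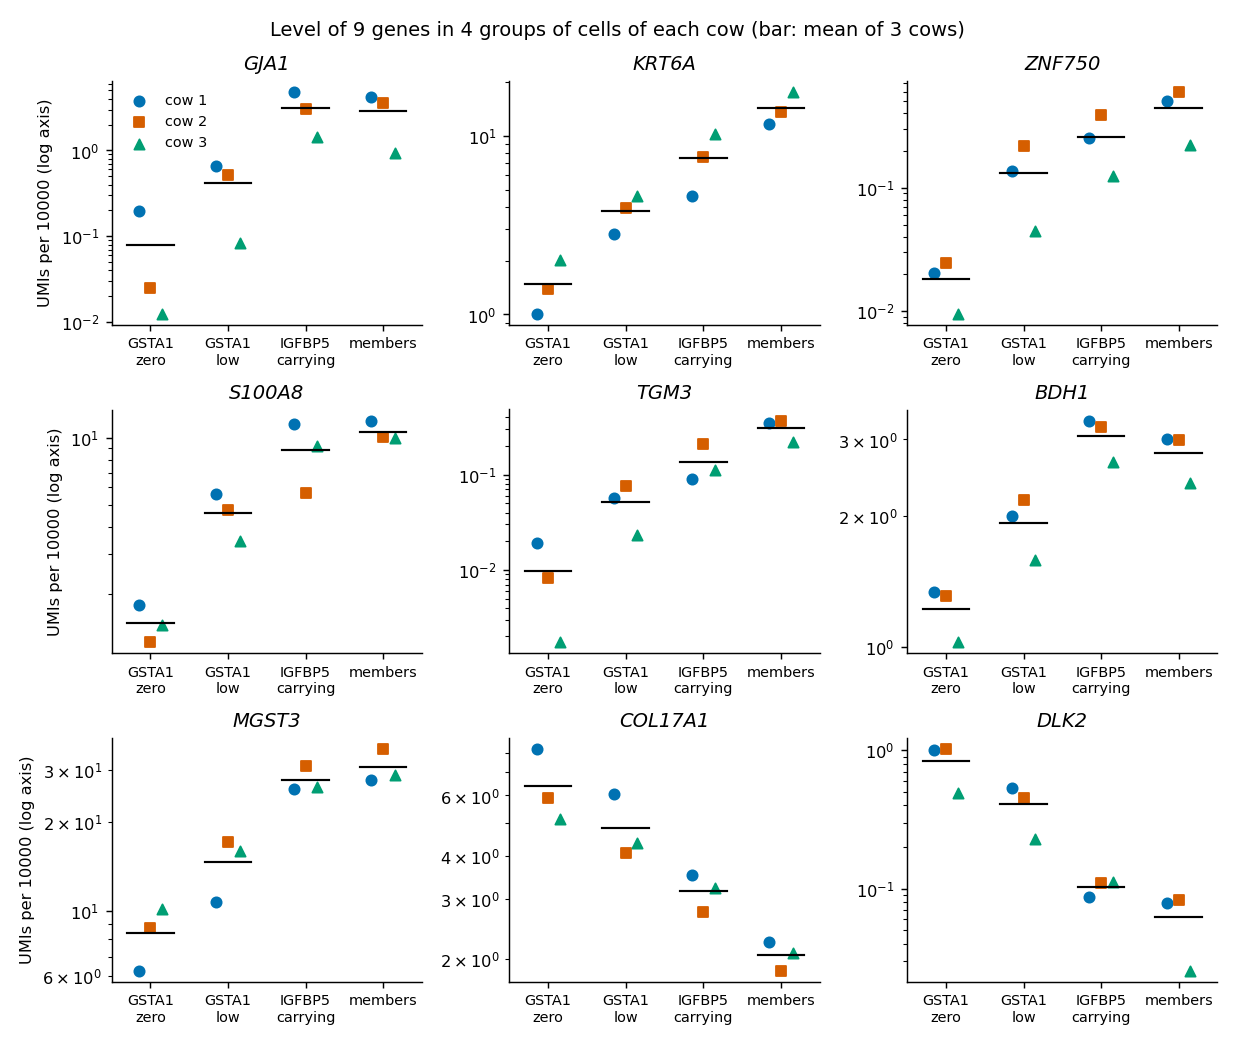
UMIs per 10000 (log axes) of 9 genes in the 4 groups of cells of each cow, with a bar at the mean of 3 cows. GJA1, KRT6A, ZNF750, S100A8, TGM3, BDH1 and MGST3 sat higher in members than in GSTA1-zero cells of every cow and COL17A1 and DLK2 sat lower, with GSTA1-low cells in between by their means.

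Shares of cells with a UMI depend on depth, so each cell was thinned to 5000 UMIs. This left out the shallower cells, which were 1, 0 and 4 members and 499, 204 and 569 GSTA1-zero cells of the 3 cows. After thinning, GJA1 was found in 54.4%, 59.1% and 22.5% of the members of the 3 cows (mean 45.4% ± 19.9), against 2.02% ± 2.30 of GSTA1-zero cells. Without thinning the means were 58.5% and 3.91%. ZNF750 was found in 21.4% ± 10.4 of members and 0.705% of GSTA1-zero cells, and KRT6A in 88.4% ± 8.43 and 36.5%. Free RNA in droplets and low expression cannot be told apart in the share of GSTA1-zero cells, against which the members' shares are read. KRT6A was common in those cells, whereas GJA1 and ZNF750 were rare in them.

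**Figure D2:**
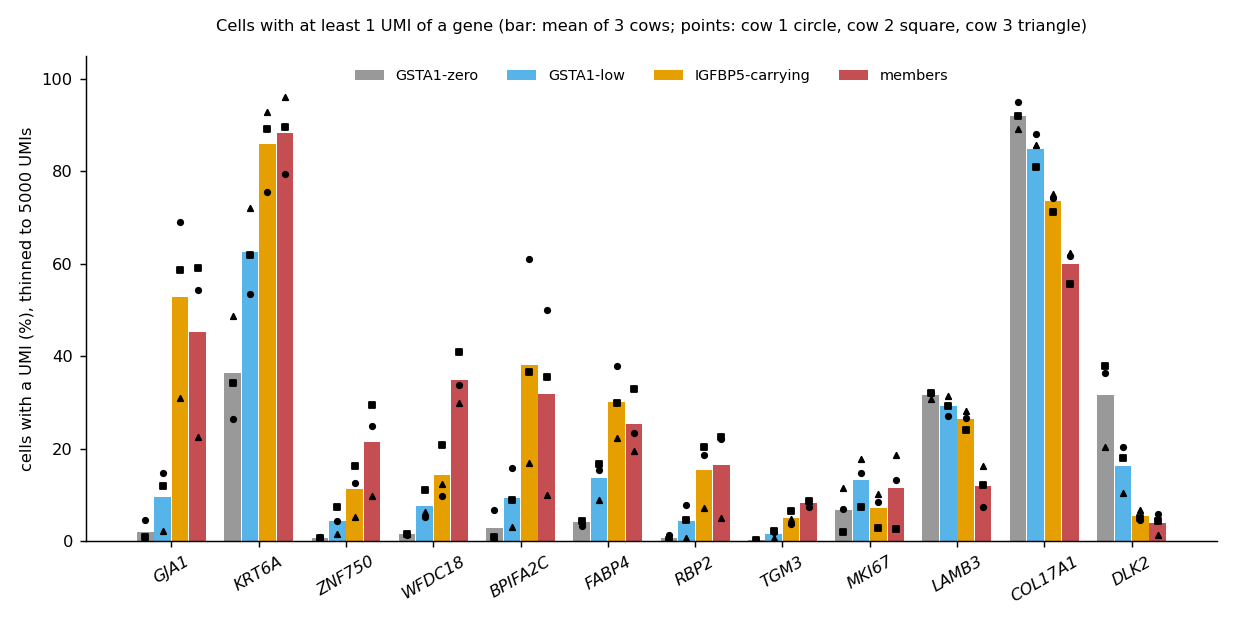
Percent of cells with at least 1 UMI of 12 genes after thinning each cell to 5000 UMIs, as the mean of 3 cows (bars) with each cow as a point, by group. GJA1, ZNF750, WFDC18, BPIFA2C, FABP4, RBP2 and TGM3 were found in under 5% of GSTA1-zero cells on average and more often in members, and LAMB3, COL17A1 and DLK2 were found less often in members.

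Of 13 keratins tested, 6 were higher in members than in GSTA1-zero cells, 3 were lower and 4 were not called. KRT6B, a close copy of KRT6A whose reads may be split between both, stood at 0.0944, 1.47 and 1.85 UMIs per 10000 against 0.00323, 0.029 and 0.0231 (log2 fold change 5.997 ± 0.23), with 41.9% of its UMIs in 7 members. The level in cow 1 was far below that in the other cows in both groups. KRT17, a keratin of activated keratinocytes, stood at 39.3, 41.5 and 58.6 against 12.5, 17.1 and 20.8 (1.57 ± 0.09, adjusted p = 4.88e-11). Among the basal keratins KRT14 was higher (26.5, 42.9 and 68.9 against 19.3, 27.7 and 44.5; 0.66 ± 0.06), its partner KRT5 was not called (0.23 ± 0.05) and KRT15 was lower (31.6, 34.5 and 41.2 against 45.5, 55.3 and 50.6; -0.41 ± 0.07). The KRT15 difference missed the fold threshold without cow 2 (-0.29). KRT7 and KRT18, keratins of simple epithelia, were the other lower ones.

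S100 proteins, small calcium-binding proteins abundant in differentiating and inflamed epithelium, were higher in 8 of 11 tested genes and lower in S100A13. S100A12 stood at 74.97, 83.4 and 65.2 UMIs per 10000 in members against 16.1, 18.4 and 15.5 (log2 fold change 2.25 ± 0.10, adjusted p = 1.99e-12). S100A8, a subunit of the antimicrobial calprotectin, stood at 11.99, 10.1 and 9.97 against 1.78, 1.21 and 1.44 (2.96 ± 0.15). Its partner S100A9 was higher by 2.90 ± 0.15, but 7 members held 52.6% of its UMIs, and the difference was 1.33 in cells of 8000 to 16000 UMIs.

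Late differentiation genes build the cornified envelope, the cross-linked protein shell of surface keratinocytes. Of 40 listed, 27 were in the table and 11 passed the filter on counts, of which 9 were higher and none was lower, with a median log2 fold change of 2.71. TGM3, a transglutaminase that cross-links the envelope, stood at 0.346, 0.369 and 0.221 UMIs per 10000 against 0.0194, 0.0083 and 0.00174 (5.48 ± 0.35, adjusted p = 2.35e-10). CSTB, a cysteine protease inhibitor, stood at 1.18, 0.795 and 1.04 against 0.0756, 0.0453 and 0.0637 (4.12 ± 0.13). TMEM79, a membrane protein needed for the skin barrier, stood at 1.65, 1.29 and 0.998 against 0.249, 0.218 and 0.164 (2.71 ± 0.08). These levels were low in absolute terms, and a gene of this list near 0 elsewhere may have passed the filter through the members. The count was 4 of 9 tested at matched depth.

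The cell contact genes differed by the kind of contact. Of 5 connexins and pannexins tested, GJA1 and GJB2 were higher and 3 were not called. GJB2 (connexin 26) stood at 0.708, 0.504 and 0.28 UMIs per 10000 against 0.0387, 0.00127 and 0.00333 (log2 fold change 5.84 ± 0.54), with 65.8% of its UMIs in 7 members, and it was 7.38 without cow 1 and 5.03 without cow 2. Of 10 desmosome genes, 7 were higher, among them PKP1 (2.11), DSC2 (1.38), PKP3 (1.35) and JUP (1.29). Desmosomes hold the cells of the stratified layers to each other. DSG2, the desmoglein of basal and simple epithelia, was lower (-1.82).

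Tight junction genes seal the space between cells. Of 15 tested, 8 were higher and none was lower (median log2 fold change 0.71), among them TJP3 (3.98), CLDN3 (1.89), CGN (1.38) and OCLN (1.10). Without cow 2 the count was 5, and in cells of 8000 to 16000 UMIs it was 4 of 12. CLDN4 stood at 1.07, 6.39 and 0.921 UMIs per 10000 against 1.37, 2.37 and 0.357. It was higher in 2 of 3 cows (0.90 ± 0.26, adjusted p = 0.00704) and was not called without cow 2 (0.59, adjusted p = 0.154) or without cow 3 (0.64, adjusted p = 0.0517).

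Genes that anchor cells to the basement membrane went the other way. Of 16 hemidesmosome and basement membrane genes, 11 were lower, 4 were not called and CD151 was higher (0.85). The median log2 fold change was -0.96. COL17A1, the transmembrane collagen of hemidesmosomes, stood at 2.25, 1.85 and 2.08 UMIs per 10000 in members against 8.19, 5.91 and 5.14 (-1.52 ± 0.09, adjusted p = 9.05e-11). LAMB3, a chain of the basement membrane laminin, stood at 0.189, 0.265 and 0.376 against 0.805, 0.855 and 0.754 (-1.31 ± 0.13), and every cow's members lay below all GSTA1-zero values. Of 14 tested at matched depth, 7 were called lower.

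DLK2, the Notch ligands DLL1 and JAG2 and several other single genes were lower in members. DLK2, which the study uses to mark granule cells, stood at 0.0787, 0.0825 and 0.0255 UMIs per 10000 in members against 1.01, 1.02 and 0.492 (log2 fold change -3.86 ± 0.24, adjusted p = 2.43e-10). DLL1 had a log2 fold change of -3.38 ± 0.20 and JAG2 of -1.95 ± 0.14. JAG2 stood at 0.433, 0.178 and 0.316 against 1.78, 1.18 and 1.00, without overlap. The receptor NOTCH1 was higher (1.91). The growth factor gene PDGFA (-3.20 ± 0.18), the RAS pathway inhibitor SPRY1 (-2.22 ± 0.12), the matrix protein gene THBS1 (-3.24 ± 0.34), UACA (-2.54 ± 0.12) and CCDC3 (-3.50 ± 0.27, and -4.38 without cow 3) were lower as well.

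Of 19 surface defence and protease inhibitor genes tested, 12 were higher and LCN2 (-4.49) and SERPINB8 (-1.80) were lower. BPIFA2C (ENSBTAG00000031376), a member of a family of secreted proteins of the oral and salivary surface, stood at 7.26, 6.34 and 1.98 UMIs per 10000 against 0.545, 0.0326 and 0.0192 (log2 fold change 5.64 ± 0.51, adjusted p = 3.42e-08). It was 7.24 without cow 1 and 4.90 without cow 2. WFDC18 (ENSBTAG00000039504), of the whey acidic protein family, stood at 3.17, 4.49 and 1.90 against 0.0982, 0.0592 and 0.0526 (5.58 ± 0.22, adjusted p = 3.62e-13). PHGR1 was higher by 5.81 ± 0.33. Reads of these families may be split between near-identical copies.

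These secreted protein genes were concentrated in few cells. The 7 richest members held 48.4% of the BPIFA2C UMIs, 46.3% of those of PHGR1 and 32.9% of those of WFDC18, against 14.7% for GJA1. The share of cells was less skewed: after thinning, BPIFA2C was found in 50.0%, 35.7% and 9.94% of members against a mean of 2.83% of GSTA1-zero cells, and WFDC18 in 33.8%, 40.9% and 30.0% against 1.57%.

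FABP5, FABP4 and RBP2, carriers of fatty acids and retinol, were also higher. FABP5, the epidermal fatty acid binding protein, stood at 33.5, 40.04 and 45.1 UMIs per 10000 in members against 6.57, 7.90 and 13.3 (log2 fold change 2.23 ± 0.11). FABP4, its adipocyte type relative, stood at 1.44, 3.27 and 1.72 against 0.245, 0.314 and 0.176 (3.23 ± 0.24). RBP2, the cellular retinol binding protein of the small intestine, stood at 0.889, 0.821 and 0.129 against 0.0304, 0.00928 and 0.00539 (5.53 ± 0.29, and 4.83 without cow 2). Cow 3 was again the lowest for RBP2 in members, as it was for GJA1 and BPIFA2C. The retinoid genes as a whole were near the share of all genes, with RBP2 and LRAT higher and DHRS3 lower of 9 tested, and the carrier RBP4 was not called (0.16). Over the whole list of fatty acid binding and oxidation, 10 of 29 genes were higher and 5 lower, with a median of 0.05. The lower ones included PDK4 (-2.59), which blocks pyruvate oxidation in mitochondria.

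Of the other genes linked to glutathione and to the oxidative stress factor NRF2, 23 of 42 tested were higher, 5 lower and 14 not called (median log2 fold change 0.44). The count was 18 of 40 higher in cells of 8000 to 16000 UMIs. MGST3, a membrane-bound glutathione transferase, stood at 27.7, 35.2 and 28.7 UMIs per 10000 in members against 6.28, 8.77 and 10.1 (1.97 ± 0.12, adjusted p = 1.39e-10). PRDX6, a peroxide-reducing enzyme, stood at 9.81, 20.3 and 24.9 against 4.27, 4.43 and 6.16 (1.91 ± 0.11). The synthesis and recycling enzymes of glutathione GCLC (0.42), GCLM (0.70) and GSR (0.80) were higher by less. Not all members of the transferase family moved together: GSTO1 (1.68) and MGST1 (1.65) were higher, while GSTP1 (-0.72), GSTT1 (-1.71) and MGST2 (-0.39) were lower. The remaining lower ones were GPX8 (-2.83) and SOD1 (-0.49). GSTA2 was higher (3.55) but is a near copy of GSTA1, so its reads may be split with the gene that chose the cells. The regulators NFE2L2 and KEAP1 were not called.

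Of 24 other detoxifying enzymes tested, 11 were higher and 4 were lower. The sulfotransferase SULT1A1 stood at 4.64, 5.77 and 1.50 UMIs per 10000 against 0.834, 0.706 and 0.286 (log2 fold change 2.72 ± 0.12), and its relative SULT1B1 was higher by 4.66. The lower ones were AOX1 (-3.50), EPHX2 (-0.98), ALDH2 (-0.88) and FMO5 (-0.67). Metallothioneins bind zinc and copper. MT2A stood at 38.4, 35.0 and 45.0 against 9.496, 8.19 and 11.3 (2.12 ± 0.08), and MT1A, MT1E and MT3 were higher as well. The metallothionein copies are alike in sequence.

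The genes of ketone body and VFA metabolism were moderately higher. Of 13 tested, 10 were higher, none was lower and 3 were not called (median log2 fold change 0.82), and 9 were higher in cells of 8000 to 16000 UMIs. BDH1, which turns acetoacetate into beta-hydroxybutyrate, stood at 3.01, 2.99 and 2.38 UMIs per 10000 in members against 1.34, 1.31 and 1.03 (1.27 ± 0.08, adjusted p = 9.85e-11). No cow overlapped between the groups for BDH1. ACAT1, the mitochondrial acetoacetyl-CoA thiolase, stood at 2.92, 2.09 and 2.63 against 1.67, 1.30 and 2.30 (0.62 ± 0.11, adjusted p = 0.000132), and its groups overlapped between cows but not within a cow.

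VFA transport was divided. Of 21 tested genes, 9 were higher, 6 lower and 6 not called (median 0.19). SLC16A1, the monocarboxylate transporter MCT1 that carries acetate, butyrate and ketone bodies, stood at 5.65, 4.26 and 6.23 UMIs per 10000 against 3.37, 2.31 and 3.17 (log2 fold change 0.96 ± 0.10, adjusted p = 2.31e-07). Its chaperone BSG stood at 16.6, 22.7 and 21.4 against 6.71, 7.47 and 9.23 (1.46 ± 0.08). The sodium-proton exchanger SLC9A2 (4.46) and the carbonic anhydrase CA1 (2.18) were higher, whereas SLC16A7 (-3.26), SLC16A11 (-0.66), SLC16A13 (-1.02), SLC4A7 (-0.76), CA13 (-0.94) and the sodium pump subunit ATP1B1 (-2.19) were lower. At matched depth, 3 of 20 were lower.

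Central metabolism was higher in parts. In the citric acid cycle, 13 of 19 genes were higher and none was lower (median 0.65), among them MDH1 (1.45) and OGDH (1.03). In glycolysis, 7 of 15 were higher and none was lower, with LDHA, which makes lactate, at 1.16 ± 0.09. Cholesterol synthesis had 16 of 20 genes higher and HSD17B7 lower, with a median log2 fold change of 1.46. SQLE (2.07), CYP51A1 (1.94) and LSS (1.89) were among them. HMGCS1 (1.83 ± 0.11), also an enzyme of cholesterol synthesis, was counted with the genes of ketone body and VFA metabolism. At matched depth the cholesterol count was 13 of 19.

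Immediate-early genes, which respond within minutes to growth factors and to tissue handling, were lower in members. Of 26 tested, 22 were lower, 3 were not called and NR4A1 was higher (0.47), with a median log2 fold change of -1.10. The count was 19 of 25 at matched depth. JUN stood at 9.33, 24.5 and 3.61 UMIs per 10000 in members against 28.1, 43.9 and 10.4 (-1.22 ± 0.10, adjusted p = 1.11e-08). Its level differed more between cows than between groups, and the difference was in the same direction within each cow. JUNB (-1.69) and EGR1 (-1.51) showed the same order. Of 12 chemokine and NF-kB response genes, 7 were lower and none was higher. Of 21 heat shock genes, which also respond to handling, 9 were higher and none was lower. The 4 most abundant of them were not called: HSPA1A (0.17), HSP90AA1 (0.34), HSPB1 (0.17) and HSP90AB1 (-0.15). How far the time in digestion enters these levels was not tested.

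The calls of cycling genes differed between settings. Of 23 genes of G2 and mitosis, 13 were higher and none was lower (median 0.64), whereas in cells of 8000 to 16000 UMIs 3 were higher and the median was 0.10. Of 19 genes of S phase, 7 were higher and none lower (median 0.30), and 3 were higher without cow 3. Of 17 tested at matched depth, 1 was higher and 2 were lower, with a median of -0.09. After thinning each cell to 5000 UMIs, 14 of 23 genes of G2 and mitosis and 6 of 17 of S phase were higher. MKI67, a marker of dividing cells, stood at 0.637, 0.156 and 0.964 UMIs per 10000 against 0.546, 0.0907 and 0.685 (log2 fold change 0.64 ± 0.21, adjusted p = 0.0189). The groups overlapped, and the call was lost without cow 1 (adjusted p = 0.0559) and without cow 3 (adjusted p = 0.104). Among the D cyclins, CCND1 was higher (1.16 ± 0.14) and CCND2 (-1.66 ± 0.13) and CCND3 (-1.41) were lower.

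Of 28 keratinocyte transcription factors tested, 10 were higher, 8 lower and 10 not called, with a median of 0.06. The differentiation factors GRHL1 (3.44), GRHL3 (3.25), OVOL1 (2.90) and ELF3 (1.99) stood with ZNF750 among the higher ones. TP63, the regulator of basal keratinocytes, was lower (-0.39), as were ID3 (-1.39), SOX4 (-1.75) and KLF6 (-0.67 ± 0.10). Of 9 genes for IGF binding proteins and receptors, 5 were lower (IGFBP3, IGFBP6, IGFBP7, IGF1R and IGF2R), 3 without cow 2 and 2 in cells of 8000 to 16000 UMIs.

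**Figure D3:**
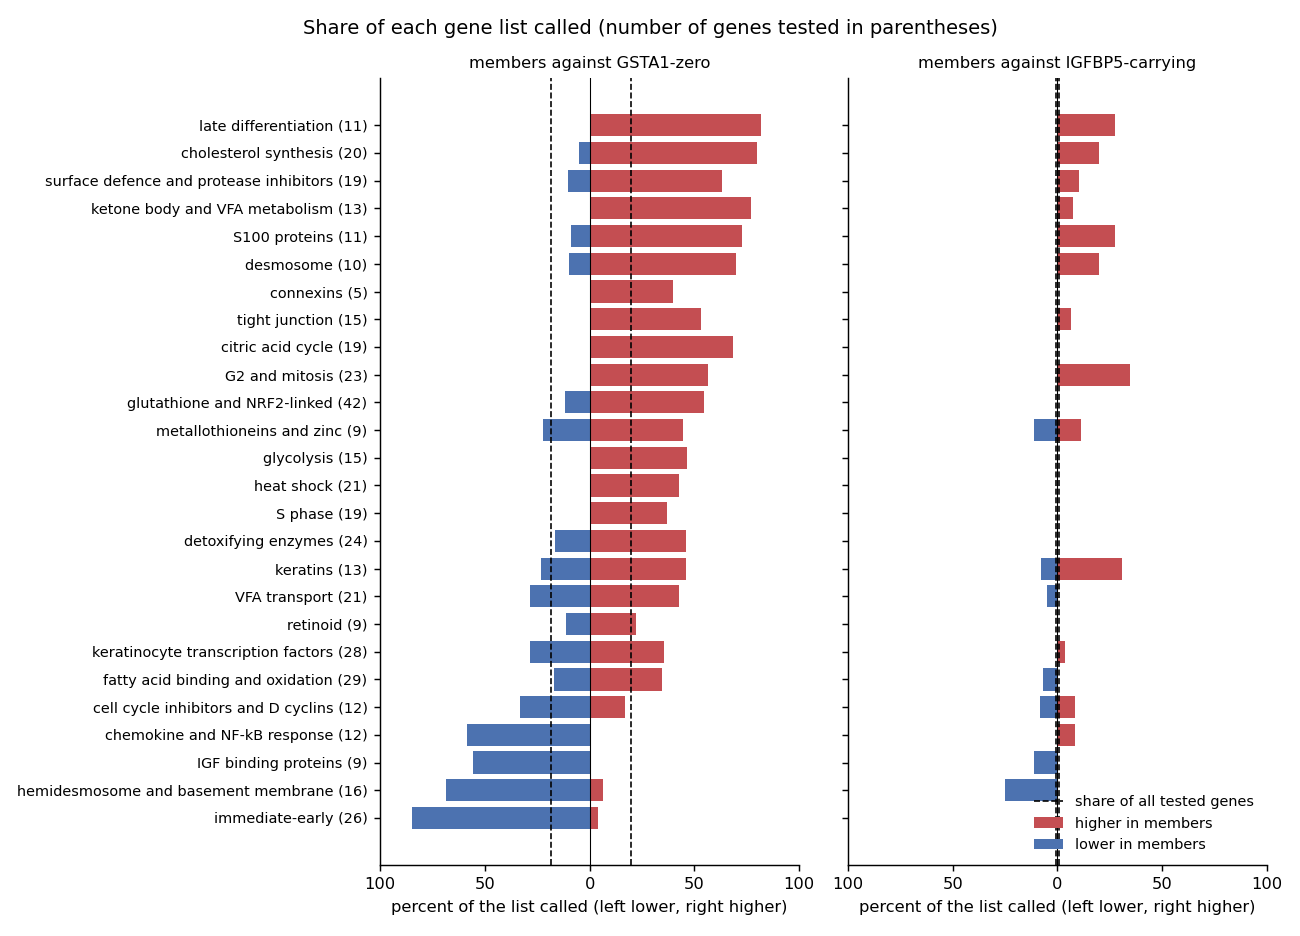
Percent of the tested genes of each list called higher (right) or lower (left) in members, against GSTA1-zero cells and against IGFBP5-carrying cells, with dashed lines at the share of all tested genes. Cholesterol synthesis had 16 of 20 genes higher and immediate-early genes 22 of 26 lower against GSTA1-zero cells, and 4 of 13 keratins and 8 of 23 genes of G2 and mitosis were higher against IGFBP5-carrying cells.

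The most similar cells were those that also had at least 8 UMIs of GSTA1 but carried IGFBP5. Against them, 86 genes were higher in members (0.861% of 9984) and 83 lower (0.831%), together 1.69%, and all of them differed the same way in each cow. IGFBP5-carrying cells were deeper, and IGFBP5 carriage itself depends on depth. At matched depth, 13 genes were higher and 20 lower (0.147% and 0.226% of 8862), and without cow 1 22 and 23, without cow 3 65 and 35.

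GJA1 did not separate these groups. It stood at 4.25, 3.53 and 0.931 UMIs per 10000 in members and at 4.79, 3.03 and 1.45 in IGFBP5-carrying cells (log2 fold change -0.27 ± 0.29, adjusted p = 0.762), higher in members in 1 of 3 cows. BDH1 (-0.20 ± 0.08), MGST3 (0.07 ± 0.12) and FABP4 (-0.53 ± 0.23) were not called either. The same held for BPIFA2C (0.33), PHGR1 (0.61), GJB2 (1.195), RBP2 (-0.02), S100A8 (0.24) and FABP5 (0.13), which were higher against GSTA1-zero cells. Of these, GJB2 was nevertheless higher in members of each cow (0.708, 0.504 and 0.280 against 0.174, 0.146 and 0.204, edgeR adjusted p = 0.221). With only these groups in the fit, 1 of 4 connexins and pannexins was called higher. ZNF750 was called higher (0.504, 0.595 and 0.224 against 0.254, 0.387 and 0.125; 0.73 ± 0.14, adjusted p = 0.010), but not without cow 1 (adjusted p = 0.192) or in cells of 8000 to 16000 UMIs (0.95, adjusted p = 0.183). Neither edgeR nor DESeq2 called any of the genes linked to glutathione and NRF2, the detoxifying enzymes or the immediate-early genes. At an unadjusted p under 0.05 edgeR had 1 higher and 4 lower of 42, 2 higher and 6 lower of 24, and 1 higher and 1 lower of 26. The metallothionein MT2A was called higher by edgeR (38.4, 35.0 and 45.0 against 22.4, 24.0 and 25.1; 0.66 ± 0.08, adjusted p = 8.65e-05), and at matched depth it was 0.51 (adjusted p = 0.0571). CXCL3, of the chemokine and NF-kB response genes, was called higher too (0.80 ± 0.20, adjusted p = 0.0497) and moved toward 0 at matched depth.

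Keratins did differ. KRT15 stood at 31.6, 34.5 and 41.2 UMIs per 10000 in members against 51.5, 60.6 and 62.7 in IGFBP5-carrying cells (log2 fold change -0.77 ± 0.07, adjusted p = 5.47e-06), and this held in cells of 8000 to 16000 UMIs (-0.75, adjusted p = 8.51e-06). KRT17 was higher by 0.61 ± 0.09, and by 0.54 at matched depth (adjusted p = 0.00323). KRT6A was higher (11.7, 13.6 and 17.6 against 4.63, 7.62 and 10.2; 0.91 ± 0.09, adjusted p = 2.59e-05), but it was not called at matched depth (0.43, adjusted p = 0.171). KRT6B (1.36 ± 0.20) and KRT14 (0.43 ± 0.06) were called over all cells but not at matched depth either. With each cell thinned to 5000 UMIs instead, 4 of 12 keratins were called higher, against 4 of 13 over all cells.

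LAMB3 and JAG2 were lower in members here as well, whereas DLL1 (-0.66 ± 0.28) and DLK2 (-1.19 ± 0.33) were not called by edgeR. DESeq2 did call DLK2 lower (-1.11), and without cow 3 its edgeR log2 fold change was -0.37. LAMB3 stood at 0.189, 0.265 and 0.376 UMIs per 10000 against 0.656, 0.622 and 0.713 (log2 fold change -1.19 ± 0.14, adjusted p = 8.65e-05), without overlap. JAG2 stood at 0.433, 0.178 and 0.316 against 1.03, 0.524 and 0.708 (-1.30 ± 0.15, adjusted p = 8.65e-05). At matched depth the differences were -1.06 for LAMB3 and -1.16 for JAG2 and both were called. Of 16 hemidesmosome and basement membrane genes, COL17A1, ITGA6, ITGB4 and LAMB3 were lower, LAMB3 alone at matched depth.

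WFDC18 had a large difference, at 3.17, 4.49 and 1.90 UMIs per 10000 in members against 0.569, 1.11 and 0.535 in IGFBP5-carrying cells (log2 fold change 2.01 ± 0.19, adjusted p = 1.09e-05). At matched depth it was 1.22 and missed the threshold (adjusted p = 0.0571). TGM1, the transglutaminase of keratinocyte membranes, stood at 0.134, 0.0955 and 0.0495 against 0.00217, 0.0192 and 0.0107 (2.78 ± 0.49, adjusted p = 0.00388). These are few molecules, and TGM1 did not pass the count filter at matched depth. CSTB and CALML5 were the other late differentiation genes called higher, and S100A9, S100A11 and S100A14 the S100 genes. At matched depth edgeR called 0 of both lists, with 1 and 4 genes higher at an unadjusted p under 0.05. Of the desmosome genes PKP1 (0.53) and DSC2 (0.81) were higher and of the tight junction genes CLDN1 (1.63), but without cow 1 edgeR called 0 of 10 desmosome genes, with 2 higher and 1 lower at an unadjusted p under 0.05. At matched depth it called 0 of 9 desmosome genes, with 0 at an unadjusted p under 0.05, and 0 of 12 tight junction genes, with 1 higher.

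SLC16A1 ran against its order with GSTA1-zero cells. It stood at 5.65, 4.26 and 6.23 UMIs per 10000 in members against 9.79, 6.03 and 9.27 in IGFBP5-carrying cells (log2 fold change -0.69 ± 0.10, adjusted p = 0.000718), and at matched depth it was -0.53 (adjusted p = 0.0315). Members thus lay between GSTA1-zero and IGFBP5-carrying cells for this transporter. Of the other genes of VFA transport, edgeR called none of 20 over all cells, with BSG at -0.32 ± 0.08 (adjusted p = 0.0572). In the metabolic lists, HMGCS1 and the cholesterol genes FDPS, SQLE, CYP51A1 and MSMO1 were higher, and RXRA (-0.39) and CPT1A (-0.61), the gate of mitochondrial fatty acid entry, were lower. Without cow 1, 2 cholesterol genes were called, and without cow 1 or cow 3 edgeR called 0 genes of fatty acid binding and oxidation, with 8 and 7 lower at an unadjusted p under 0.05. IGFBP3, of the same family as the gene of the rule, was lower (-2.02 ± 0.38). Its levels were 0.0787, 0.0217 and 0.0127 UMIs per 10000 against 0.211, 0.112 and 0.0614, which are few molecules.

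Some genes of G2 and mitosis were higher in members than in IGFBP5-carrying cells, although members were the shallower group. Of 23 genes of G2 and mitosis, 8 were called higher and none lower (median log2 fold change 0.80): MKI67, CCNB1, CDC20, CENPE, CENPF, NUSAP1, HMMR and PTTG1. At matched depth 4 were called and the median was 0.99. MKI67 stood at 0.637, 0.156 and 0.964 UMIs per 10000 against 0.258, 0.0905 and 0.408 (1.14 ± 0.24, adjusted p = 0.0174). Against GSTA1-low cells edgeR and DESeq2 called 0 of the 23 higher, with 0 at an unadjusted p under 0.05, and edgeR called CDK1 (-0.69), BUB1B (-0.66) and CENPF (-0.58) lower (median -0.27). Without cow 1 or without cow 2 edgeR called 0 lower, with 6 and 3 lower at an unadjusted p under 0.05. Against IGFBP5-carrying cells, neither edgeR nor DESeq2 called any of the 19 genes of S phase (median 0.13). At an unadjusted p under 0.05, 4 were higher by edgeR and 1 by DESeq2. With only these groups in the fit edgeR called 1 of 18 higher, and 6 of 19 with 0 against at least 4 UMIs of IGFBP5. In the same comparison CCND1 was higher by 0.88 ± 0.16 and CCND2 lower (-0.76 ± 0.14). Without cow 1 edgeR called 0 of the 23 genes of G2 and mitosis against IGFBP5-carrying cells, with 16 higher at an unadjusted p under 0.05. The MKI67 call was also lost without cow 3 (adjusted p = 0.142).

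**Figure D4:**
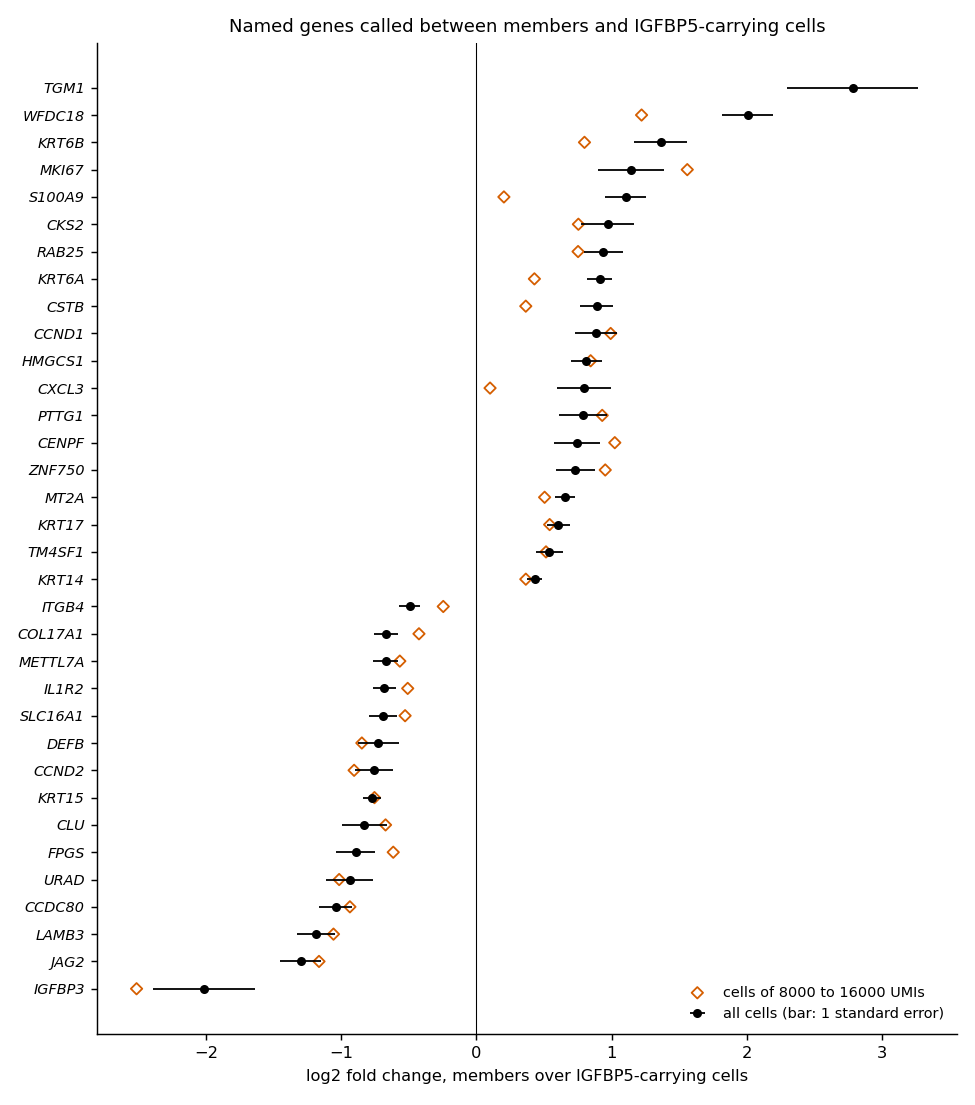
Log2 fold change of the named genes called between members and IGFBP5-carrying cells (dots, all cells, with bars of 1 standard error) and the same in cells of 8000 to 16000 UMIs (diamonds, absent for TGM1, which was not tested there). KRT15, LAMB3, JAG2 and MKI67 kept a similar or larger difference at matched depth, whereas S100A9, CXCL3, KRT6A and CSTB moved toward 0.

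Against GSTA1-low cells, 877 genes were higher in members (8.78% of 9984) and 813 lower (8.14%), together 16.9%. Sorted by GSTA1 count, with IGFBP5 and mitochondrial share kept within the rule, GJA1 went from a mean of 0.0538 UMIs per 10000 in cells with 0 GSTA1 UMIs over 1.05 at 4 to 7 to 5.66 at 40 to 191. KRT6A went from 1.33 to 22.4 between the same ends. COL17A1 went down from 6.85 to 0.901 and DLK2 from 0.990 to 0.00341. These trends are descriptions, since the depth of the cells rose with the GSTA1 count too.

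The means of other genes turned within the range, at counts that differed between cows. SLC16A1 had a mean of 2.40 UMIs per 10000 at 0 GSTA1 UMIs, 6.17 at 8 to 11 and 4.38 at 40 to 191, whereas in cow 3 it was highest at 20 to 39 (6.70). KRT15 was 46.0 at 0, 52.7 at 2 to 3 and 21.9 at 40 to 191. MKI67 had a mean of 0.517 at 0, 1.06 at 8 to 11 and 0.116 at the top, and it was highest at 4 to 7 in cow 2 (0.469) and at 12 to 19 in cow 3 (1.51). The highest bin held only 6 and 12 cells in cows 1 and 2 and 120 in cow 3, and it had 0 UMIs of MKI67 in cows 1 and 2.

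**Figure D5:**
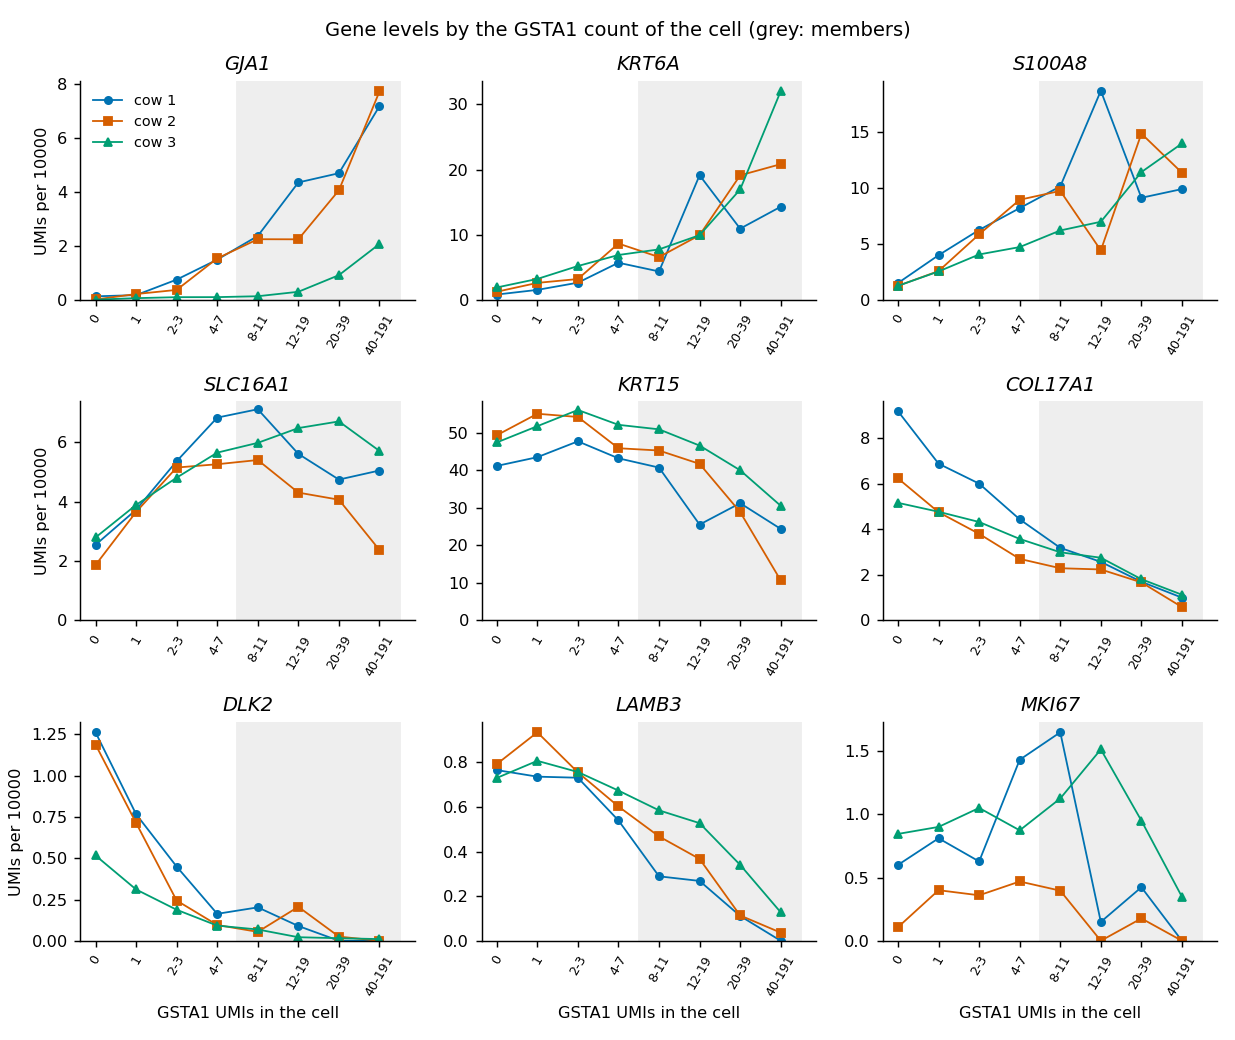
UMIs per 10000 of 9 genes by the number of GSTA1 UMIs in the cell, for cells with at most 1 UMI of IGFBP5, 1 line per cow, with the members' range shaded grey. GJA1, KRT6A and S100A8 were higher in the top bin than at 0 GSTA1 UMIs in each cow, COL17A1, DLK2 and LAMB3 were lower, and the means of SLC16A1 and MKI67 were highest at 8 to 11.

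The members were not uniform. GJA1 was found in 298 of the 681 members, in 65.2%, 77.4% and 33.0% of those of cows 1, 2 and 3. Members with GJA1 carried more KRT6A, at 15.1, 15.5 and 30.7 UMIs per 10000, than members without it, at 4.13, 6.80 and 10.9. The order was the same in each cow. Members with GJA1 also had a mean of 7.95 UMIs per 10000 of BPIFA2C against 0.453 and of 0.797 of RBP2 against 0.185, and less KRT15 (30.9 against 42.9). SLC16A1 was close in both (5.40 and 5.30). GSTA1 itself averaged 18.4 and 10.3, and members with GJA1 were also deeper, by medians of 19280, 19330 and 13880 UMIs against 14610, 18230 and 13420.

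A part of the members carried RNA of dividing cells. A UMI of MKI67 or TOP2A was found in 204 members, 24.6%, 11.3% and 35.0% of those of the 3 cows. These had less GSTA1, at a mean of 10.1 UMIs per 10000 against 16.1 in the other members. They were also deeper, by medians of 20070, 21230 and 15250 UMIs against 17680, 18850 and 12810, and the rule used an absolute GSTA1 count. After thinning, MKI67 was found in 13.2%, 2.61% and 18.7% of members against 6.96%, 1.97% and 11.6% of GSTA1-zero cells, so the cows differed more than the groups.

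Markers of other cell types were nearly absent from the members. All 5 fibroblast markers in the table, both Langerhans cell markers and the endothelial markers PECAM1 and CDH5 were at 0. The endothelial gene VWF stood at 0.0708, 0.0304 and 0.0325 UMIs per 10000 in members against 0.030, 0.0159 and 0.0217 in GSTA1-zero cells (log2 fold change 0.88 ± 0.29, adjusted p = 0.0184), and the call was lost on leaving out any 1 cow. The 7 immune markers summed to between 0.126 and 0.387 in members and between 0.161 and 0.413 in GSTA1-zero cells, of which CD14 made up most. Of the 4 smooth muscle markers, MYH11 and TAGLN were at 0, and of the 2 melanocyte markers in the table DCT was at 0.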

How the data were processed

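UMI counts were made by the authors with Cell Ranger 3.1.0 and deposited as a matrix of genes by cells, after their filters on genes, UMIs and mitochondrial share per cell and removal of doublets, for which they used DoubletFinder. The deposited natural log values (ln of 1 plus UMIs scaled to 10000 per cell) of 19533 named genes gave the gene names only. They matched the counts within a tolerance of 1e-06. Genomic positions were not used, since the reference table is of another assembly. Each cell's cow was read from its barcode suffix. No further doublet caller was run.

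Counts were summed per cow and cell group (12 sums) and tested with edgeR 4.0.16 in R 4.3.3 (TMM, filterByExpr, quasi-likelihood test, cow as a block, Benjamini-Hochberg over 9984 genes). Sums of the same cow deviated together (correlations of 0.560 to 0.877), and same-numbered sums are of the same animal. The 3 cows are separate animals. With the cow as a block, p-values measure how the differences between cell groups varied over cows. They do not measure the spread of levels between cows. GSTA1, IGFBP5 and 13 mitochondrial genes were left out of the tests, since they chose the cells. The test was checked on simulated counts. DESeq2 1.42.0 was an alternative. The remaining steps and plots were run in pandas 2.3.3, scipy 1.17.1, numpy 2.4.6 and matplotlib 3.10.9 under Python 3.11.15.

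The members and the gene lists were chosen with earlier results of these data known. The naming rule took the genes the study names for these cells, the 12 largest and 12 smallest fold changes among called genes of the same sign in 3 cows with at least 50 CPM in the higher group (against GSTA1-zero and IGFBP5-carrying cells), and up to the 4 most abundant genes of each list. Not every gene taken by this rule is described above. Further list genes were named after their values were seen, as examples or where few were called.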

Additional observations from a re-analysis of the deposited data

How the results depend on the processing

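Against GSTA1-zero cells (1982 genes higher and 1859 lower), the counts were 1220 and 1089 in cells of 8000 to 16000 UMIs, 548 and 765 with a log2 fold change above 1, and 662 and 555 without the replicate block, and 1164 were lower after thinning to 5000 UMIs. Leaving out each cow gave 1563 to 1814 higher and 1414 to 1716 lower, and DESeq2 gave 1884 and 1619. Of 111 named genes called, 63 kept their call without the block and 48 lost it. CKS2 (-0.094) and RRM1 (-0.046) turned their sign in cells of 8000 to 16000 UMIs.

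Against IGFBP5-carrying cells (86 higher and 83 lower), the counts were 196 and 156 with no filter on low counts, 254 and 189 with only these groups in the fit, 13 and 20 in cells of 8000 to 16000 UMIs, 17 and 24 after thinning, 22 and 18 with GSTA1 at least 8 per 10000, 38 and 41 with at least 12 UMIs of GSTA1, and 22 and 21 with a log2 fold change above 1. Higher genes numbered 33 without cells over 25000 UMIs. Added after seeing the data, 0 against at least 4 UMIs of IGFBP5 gave 302 and 250, and leaving out cells with a UMI of MKI67 or TOP2A gave 42 higher, with PTTG1 at -0.13. Without the replicate block edgeR called 0 and 0 genes, with 125 higher and 170 lower at an unadjusted p under 0.05. Leaving out each cow gave 22 to 78 higher and 23 to 70 lower, the lowest without cow 1. The cause of these changes was not tested.

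Against GSTA1-low cells (877 and 813), the counts were 26 and 46 without the replicate block, 436 and 421 in cells of 8000 to 16000 UMIs, 545 and 420 after thinning, 180 and 305 with a log2 fold change above 1, and 582 to 801 and 445 to 613 on leaving out each cow. The mean share of members (2.86%) was 1.49% with 0 UMIs of IGFBP5, 2.14% to 3.48% under the other limits on GSTA1 and mitochondrial share, and 1.80% to 3.52% on leaving out each cow, all within 1 SD over cows. The depth of low genes such as TGM1 and ZNF750 limits what matched depth can show.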

Other observations

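A further 49 cells had at least 8 UMIs of GSTA1 with a mitochondrial share under 1% (11, 2 and 36 in cows 1, 2 and 3) and were outside the rule. The 36 of them with at most 1 UMI of IGFBP5 had a median of 4505 UMIs and a median mitochondrial share of 0.150%, and between 1% and 5% there was 1 such cell. Pooled over cows, they carried 116.5 UMIs of KRT6A, the suprabasal keratin, per 10000, 102 of BPIFA2C, 4.55 of GJA1 and 14.4 of KRT15, with 0 UMIs of MKI67. These are values of few cells, mostly of cow 3, and no comparison was made.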
